A study of Glycine max with 4 samples.

Results

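The comparison Mt:H2O sets a leaf library of soybean (*Glycine max*, cultivar SuiNong 28) seedlings treated with 100 µM melatonin in water (Mt) against a leaf library of seedlings treated with water alone (H2O). It uses 2 of the 4 RNA-seq libraries of the series, 1 library per condition, and no salt was given in either. The other 2 libraries, also 1 per condition, came from seedlings given 1% NaCl with 100 µM melatonin (NaCl+Mt) or 1% NaCl alone (NaCl), and their values are given only to place the Mt and H2O levels. All seedlings were 3 weeks old by the labels, although the study's account of its results gives a lower age, and all were grown at 25 °C by the labels. The melatonin was diluted from an ethanol stock. The sources used here do not state whether the H2O seedlings received ethanol, so effects of melatonin and of its solvent cannot be told apart. Whether a library was made from 1 plant or from pooled plants is not given in the sources used here.

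Melatonin is an indoleamine that plants, like animals, make from tryptophan by way of serotonin. Its final step in plants is catalysed by acetylserotonin methyltransferase, ASMT. Applied melatonin is known in plants for its action as an antioxidant and for effects on growth, leaf ageing and stress tolerance. A leaf expresses the photosynthetic genes at high level, whereas genes of cell division are expressed mainly in young, growing tissue.

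The deposited table gives a read count and an RPKM (reads per kilobase of transcript, scaled to the mapped reads of the library) for 55787 transcript models at 46367 loci. On these models, 23479688 reads were counted in Mt and 22908979 in H2O. A transcript was called up-regulated or down-regulated when RPKM + 0.1 was at least 2-fold higher or lower in Mt than in H2O and either library had an RPKM of at least 1. With 1 library per condition there was no replicate spread to test against, so a call describes these 2 libraries, and no p-value was computed. Each log2 value is that of (Mt RPKM + 0.1)/(H2O RPKM + 0.1), and the standard error (SE) beside it covers the counting of reads alone. The reads carry no molecular identifiers and are not independent molecules, so SEs, intervals and floors cover counting error only. An RPKM of 0 was listed despite mapped reads for 4628 transcripts in Mt and 5430 in H2O. For loci listed so, the ratio of the counts, each divided by the mapped reads of its library (the read ratio), is given with its exact 95% counting interval. Where a library had no read, the fold is a lower bound computed against a floor of 3 reads in that library. A lower level of a transcript in leaf RNA can reflect fewer cells that express it or less of it per cell, and these cannot be told apart in bulk libraries.

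More transcripts were called up-regulated than down-regulated in Mt, while the median log2 over all that passed was close to 0. The up-regulated transcripts made up 21.2% and the down-regulated 12.5% of the 41781 that passed the RPKM filter, around a median log2 of 0.05. The distribution was skewed to rises, with a 95th percentile of 4.16 and a 5th percentile of -1.86 on the log2 scale. A fold of at least 16 was reached by 2305 up-regulated and 444 down-regulated transcripts. H2O was listed at 0 for 2370 of the up-regulated transcripts, and their median log2 of 4.81 depends on the pseudocount of 0.1. Among the down-regulated ones, Mt had 3 reads or fewer for 194 and was listed at 0 with more reads for another 341. The up-regulated transcripts held 26.9% of the reads in Mt and 6.92% of those in H2O, whereas the down-regulated ones held 6.39% in Mt and 22.4% in H2O.

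Up-regulated transcripts were mostly of low level in H2O, with a median RPKM of 6.90 in Mt, 1.55 in NaCl+Mt, 1.37 in NaCl and 1.12 in H2O. Their median levels in the NaCl+Mt and NaCl libraries thus lay near that of H2O. Of these transcripts, 6063 (68.3%) had at least 2-fold more RPKM + 0.1 in Mt than in each of the other libraries. The down-regulated transcripts had a median RPKM of 3.23 in Mt, 8.86 in NaCl+Mt, 5.98 in NaCl and 11.3 in H2O, and 2026 of them (38.8%) were at least 2-fold lower in Mt than in each of the other libraries. The call had already set Mt at least 2-fold apart from H2O. The 68.3% and the 38.8% therefore depend on the NaCl+Mt and NaCl libraries alone. H2O had 3 reads or fewer for 1345 of the up-regulated transcripts, and was listed at 0 with more than 3 reads for another 1083, of which 1011 still differed by a fold of at least 2 in reads.

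Calls depended on expression level. Among transcripts with a mean RPKM of 1 or less over Mt and H2O, 63.7% were up-regulated and 21.5% down-regulated, but a transcript of so low a mean passed the filter only when the libraries differed. Of the transcripts with a mean RPKM over 5 and up to 20, 15.3% were up-regulated and 10.7% down-regulated. Of those over 20 and up to 100, 13.1% were up-regulated and 14.1% down-regulated. Above 100, the shares were 23.0% and 16.0%. By transcript length the shares moved little, from 22.7% up-regulated among those of up to 600 bases to 19.3% among those over 1746 bases.

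**Figure D1:**
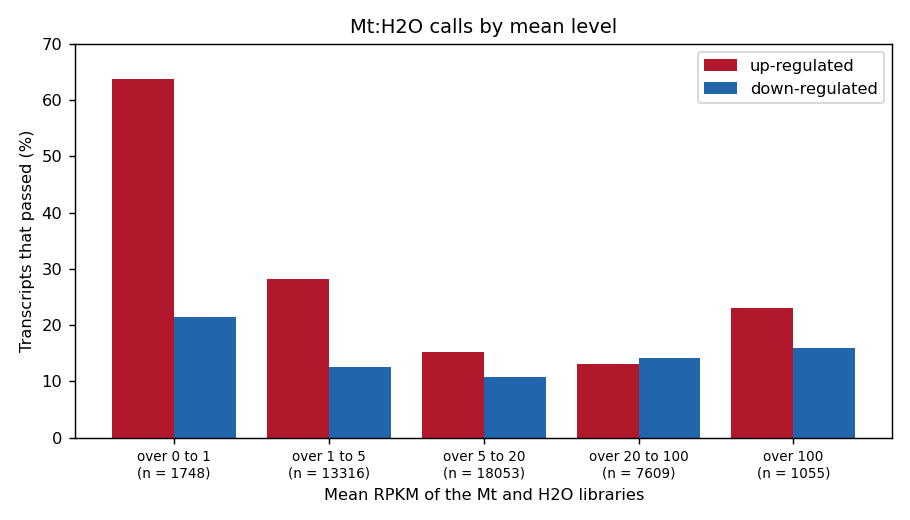
The y axis shows the share (%) of transcripts up-regulated (red) and down-regulated (blue) in Mt:H2O, and the x axis bins of the mean RPKM over the Mt and H2O libraries, with the number of transcripts that passed in each bin. Up-regulated transcripts exceeded down-regulated ones in every bin but that over 20 to 100, where they made up 13.1% against 14.1%.

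The pathway genes described next are the 211 loci that the study listed for its pathways, each represented by the transcript with the highest mean RPKM. The study chose them on these libraries, so their directions are not independent evidence. Of the 211 loci, 172 were up-regulated and 21 down-regulated. Among all 33134 loci that passed, 23.4% were up-regulated and 12.7% down-regulated, with a median log2 of 0.09, and of the listed loci 206 passed. Mt had the highest RPKM of the 4 libraries at 175 of the listed loci and the lowest at 10, against 43.1% and 27.3% of all loci that passed. Most listed loci were up-regulated, so Mt lay above H2O at them by the call. The shares over all loci cover every direction of change and are not a like comparison. Several listed loci are near-identical copies, a common feature of the soybean genome, and although the study's methods count uniquely mapped reads, how reads that fit several copies were treated is not stated further.

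**Figure D2:**
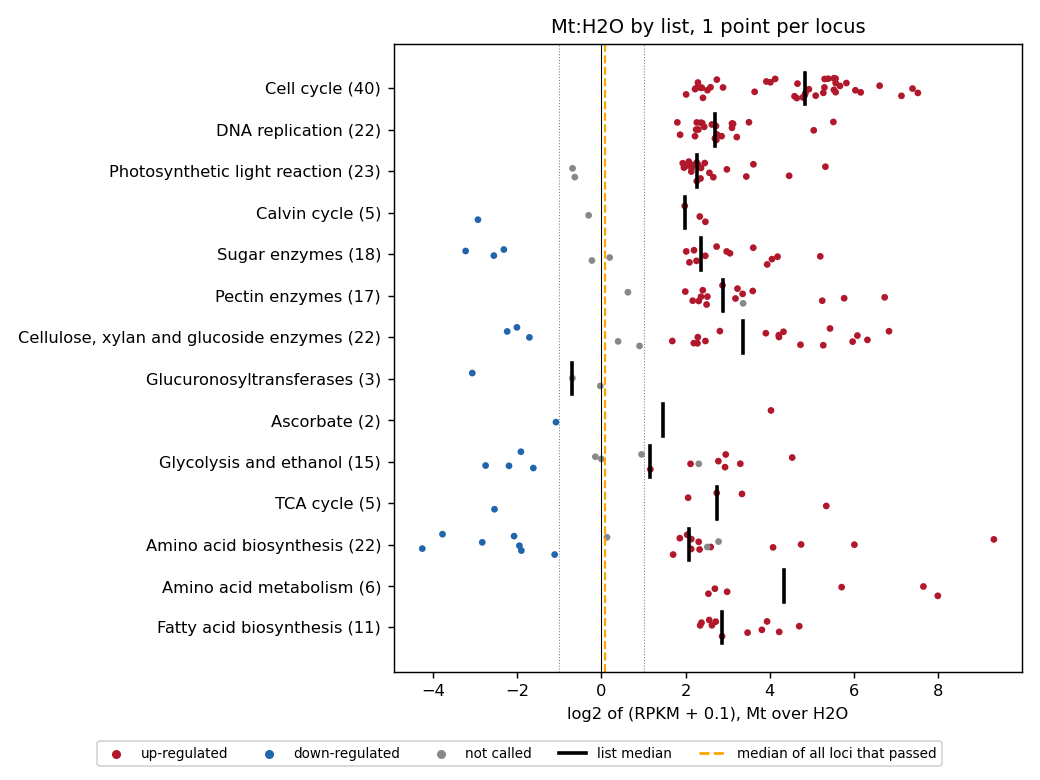
Each point is a listed locus, and the x axis shows its log2 of RPKM + 0.1 in Mt over H2O, by list, with the number of loci in brackets. Black bars mark list medians, the dashed line the median of all loci that passed (0.09), and dotted lines a fold of 2. All cell cycle, DNA replication and fatty acid loci were up-regulated, whereas the sugar, glycolysis and amino acid biosynthesis lists held loci in both directions.

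Genes of melatonin and polyamine synthesis were all up-regulated, 6 of 6 loci with a median log2 of 4.35. *ASMT* had 2 loci. Glyma06g44010 had 786 reads in Mt, 10 in NaCl+Mt, 4 in NaCl and 0 in H2O, which was at least 263-fold higher in Mt than in H2O. Glyma18g50470 had 159 reads in Mt, 2 in NaCl+Mt, 3 in NaCl and 0 in H2O, at least 53.3-fold higher in Mt. At both loci Mt stood apart from the other 3 libraries, including the other one that received melatonin.

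Spermidine synthase, *SPDS*, adds an aminopropyl group to putrescine, and agmatinase, *speB*, makes putrescine from agmatine. *SPDS* Glyma10g39440 had 583 reads in Mt, 56 in NaCl+Mt, 53 in NaCl and 11 in H2O, and since H2O was listed at an RPKM of 0 its change is given as a read ratio of 53.3 (interval 29.5 to 107.3). *SPDS* Glyma20g28340 had an RPKM of 28.4 in Mt, 4.31 in NaCl+Mt, 9.56 in NaCl and 4.80 in H2O (log2 2.54, SE 0.13). *SPDS* Glyma08g39810 had 10.9 RPKM in Mt, 3.32 in NaCl+Mt, 2.88 in NaCl and 1.60 in H2O (log2 2.70, SE 0.23). All 3 loci were highest in Mt, whereas the order of the other libraries differed between them, and at Glyma20g28340 NaCl was over 2-fold above NaCl+Mt. *speB* Glyma03g03270 differed from them in that NaCl+Mt was also high, with an RPKM of 18.7 in Mt, 13.8 in NaCl+Mt, 1.05 in NaCl and 2.27 in H2O (log2 2.99, SE 0.18).

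Of the 22 loci of amino acid biosynthesis, 12 were up-regulated, 7 down-regulated and 3 not called. All 4 loci of cysteine synthesis were down-regulated. Serine O-acetyltransferase, *cysE* Glyma18g08910, which makes the acetylserine that is then converted to cysteine, had an RPKM of 6.40 in Mt, 17.0 in NaCl+Mt, 16.3 in NaCl and 25.0 in H2O (log2 -1.95, SE 0.11). The cysteine synthase *cysK* Glyma19g43150 was the most abundant, with an RPKM of 49.4 in Mt, 215.9 in NaCl+Mt, 104.6 in NaCl and 184.8 in H2O (log2 -1.90, SE 0.04). Its copy Glyma20g37280 had 5.06 RPKM in Mt, 25.1 in NaCl+Mt, 15.2 in NaCl and 21.6 in H2O (log2 -2.07, SE 0.13). Mt was the lowest library at these 3 loci. *CYSC1* Glyma09g39390, a cyanoalanine and cysteine synthase, had 32.9 RPKM in Mt, 69.2 in NaCl+Mt, 13.1 in NaCl and 71.1 in H2O (log2 -1.11, SE 0.05), so that here NaCl was lower than Mt.

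By contrast, all 4 loci of proline synthesis were up-regulated, with a median log2 of 2.22. Pyrroline-5-carboxylate synthase catalyses the first step from glutamate, and its locus *P5CS2* Glyma18g03830 had 15.5 RPKM in Mt, 1.37 in NaCl+Mt, 2.11 in NaCl and 0.83 in H2O (log2 4.08, SE 0.21). *P5CS2* Glyma07g16510 had 9.42 RPKM in Mt and 1.82 in H2O (log2 2.31, SE 0.16), and *P5CS2* Glyma03g12240 1.19 RPKM in Mt and 0.26 in H2O (log2 1.86, SE 0.39). Pyrroline-5-carboxylate reductase, *proC* Glyma03g28480, which completes proline, had 9.16 RPKM in Mt and 2.01 in H2O (log2 2.13, SE 0.18). Mt was the highest library at all 4, although Glyma03g12240 had a similar RPKM of 1.03 in NaCl.

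Of the shikimate and tryptophan enzymes, which lead to the precursor of melatonin, 3 of 5 loci were up-regulated. Shikimate kinase, *aroK* Glyma04g39700, had 12.7 RPKM in Mt and 2.02 in H2O (log2 2.60, SE 0.21). Anthranilate synthase, the entry to tryptophan, was represented by *trpE* Glyma18g03270 with 546 reads in Mt and 16 in H2O (log2 4.74, SE 0.37). Its neighbour Glyma18g03260 had 21 reads in Mt and 2 in H2O and did not reach the RPKM filter. Tryptophan synthase, *trpB* Glyma11g00580, had 10.1 RPKM in Mt, 6.85 in NaCl+Mt, 3.03 in H2O and was listed at 0 in NaCl (log2 1.70, SE 0.15, for Mt:H2O). Shikimate dehydrogenase, *aroE* Glyma20g37400, had 26 reads in Mt and 0 in H2O and was also below the filter.

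The largest change among the listed loci was that of a serine hydroxymethyltransferase, an enzyme that interconverts serine and glycine. *SHMT* Glyma09g33480 had 2885 reads in Mt, 6 in NaCl+Mt, 4 in NaCl and 0 in H2O, at least 966-fold higher in Mt than in H2O. The other locus, *SHMT* Glyma05g28490, was expressed in every library, with 65.5 RPKM in Mt, 25.0 in NaCl+Mt, 10.5 in NaCl and 14.9 in H2O (log2 2.13, SE 0.06). The RPKM of the 2 loci was thus alike in Mt (63.8 for Glyma09g33480), while only Glyma05g28490 was above an RPKM of 0 in the other libraries. Tyrosine aminotransferase, *TAT* Glyma06g35630, had 235 reads in Mt and 0 in each other library, at least 78.7-fold higher than in H2O.

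Glutamate synthase gave a further example of unlike copies. *GLT1* Glyma06g13280 had 27.2 RPKM in Mt and 5.33 in H2O (log2 2.33, SE 0.05), whereas Glyma04g41540 had 56.3 RPKM in Mt and 51.3 in H2O and was not called. *ADT* Glyma17g01610, a dehydratase of phenylalanine synthesis, had 3.24 RPKM in Mt and 0.71 in H2O (log2 2.04, SE 0.32). The remaining 3 loci were down-regulated. The branched-chain aminotransferase *BcaT* Glyma07g30500 had 1.499 RPKM in Mt, 9.66 in NaCl+Mt and 11.3 in H2O, and was listed at 0 in NaCl (log2 -2.83, SE 0.28, for Mt:H2O). *dapA* Glyma03g02530, of lysine synthesis, had 2 reads in Mt and 58 in H2O, giving a read ratio of 0.035 (interval 0.0041 to 0.131). *ALD1* Glyma08g19250, an aminotransferase of defence known from *Arabidopsis*, had 1 read in Mt and 50 in H2O, giving a read ratio of 0.020 (interval 0.00050 to 0.117).

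**Figure D3:**
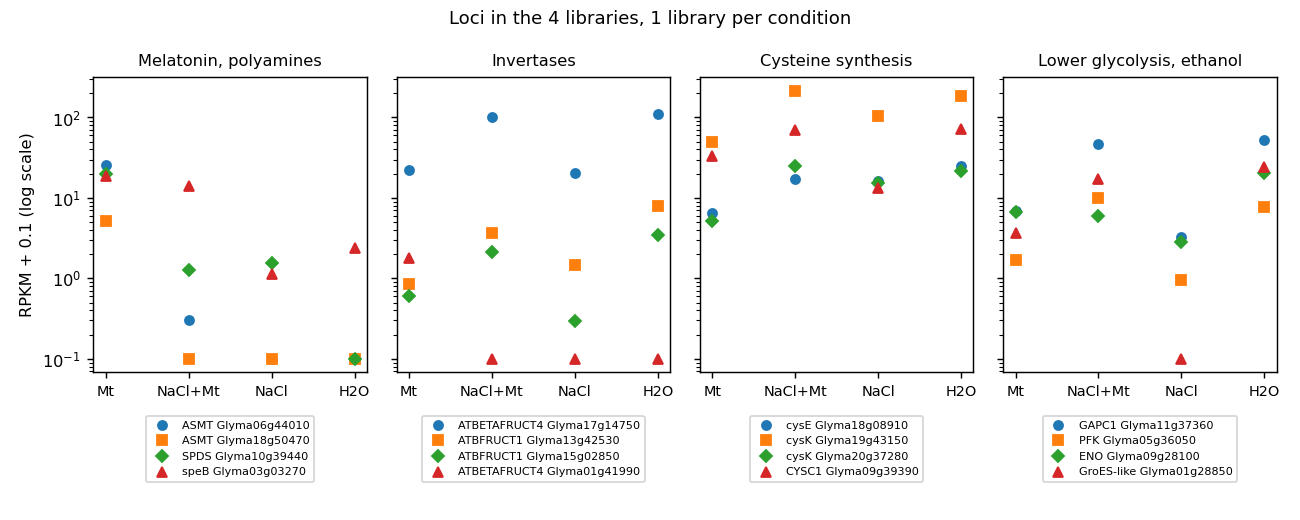
The y axis shows RPKM + 0.1 on a log scale for 4 loci per panel, and the x axis the 4 libraries (1 per condition). *ASMT* and *SPDS* were highest in Mt, the cysteine loci and 3 of 4 invertase loci were lower in Mt than in H2O, and *GAPC1*, *PFK* and the *GroES-like* locus were low in Mt and NaCl and high in NaCl+Mt and H2O.

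Of the 18 loci of sugar enzymes, 13 were up-regulated, 3 were down-regulated and 2 were not called, with a median log2 of 2.36. The 3 down-regulated loci were all invertases, which split sucrose into glucose and fructose, and there were 4 invertase loci in all. *ATBETAFRUCT4* Glyma17g14750, an acid invertase, had 22.1 RPKM in Mt, 101.6 in NaCl+Mt, 20.04 in NaCl and 110.4 in H2O (log2 -2.32, SE 0.04). The insoluble isoenzyme *ATBFRUCT1* Glyma13g42530 had 0.74 RPKM in Mt, 3.53 in NaCl+Mt, 1.37 in NaCl and 7.76 in H2O (log2 -3.22, SE 0.25). Its copy Glyma15g02850 had 0.50 RPKM in Mt, 2.01 in NaCl+Mt, 0.19 in NaCl and 3.41 in H2O (log2 -2.55, SE 0.31). H2O was the highest of the 4 libraries at these 3 loci, and NaCl+Mt came next. As down-regulated loci they had H2O above Mt by the call. The share with H2O highest among all loci that passed, 26.7%, covers every direction of change and is not a like comparison. The remaining invertase locus, *ATBETAFRUCT4* Glyma01g41990, was of low level, with 98 reads in Mt and 10 in H2O, giving a read ratio of 9.85 (interval 5.13 to 21.2).

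Sucrose synthase, *SUS*, which cleaves or forms sucrose reversibly, was up-regulated at 6 of 6 loci. The most abundant, Glyma09g08550, had 25.4 RPKM in Mt and 5.45 in H2O (log2 2.20, SE 0.08), while Glyma02g40740 had 263 reads in Mt, 32 in NaCl+Mt, 1 in NaCl and 17 in H2O, giving a read ratio of 15.5 for Mt:H2O (interval 9.52 to 27.1). Fructokinase, *scrK*, which phosphorylates fructose, was up-regulated at 3 of 4 loci. *scrK* Glyma11g13580 had 26.3 RPKM in Mt and 3.26 in H2O (log2 2.97, SE 0.16), and Glyma12g05580 10.4 RPKM in Mt and 0.76 in H2O (log2 3.61, SE 0.32). *scrK* Glyma15g03430, with 9.17 RPKM in Mt and 7.99 in H2O, was not called. Hexokinase, *HK* Glyma11g10130, had 8.60 RPKM in Mt and 0.95 in H2O (log2 3.05, SE 0.23). Both loci of trehalose 6-phosphate phosphatase, *otsB*, were up-regulated, with log2 values of 2.01 and 2.09. Phosphoglucomutase, *PGM* Glyma10g38590, was the most abundant locus of the list in Mt and was not called, with 43.3 RPKM in Mt, 101.7 in NaCl+Mt, 307 in NaCl and 50.6 in H2O.

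Of the pectin genes, 15 of 17 loci were up-regulated and none was down-regulated, against 12.7% down-regulated among all loci that passed. The median log2 was 2.88. Galacturonosyltransferases, *GAUT*, build the pectin backbone, and all 7 loci were up-regulated with log2 values between 1.99 and 5.24. The highest value was that of Glyma12g16550, with 172 reads in Mt and 14 in H2O, where H2O was listed at 0. Its read ratio was 12.3 (interval 7.16 to 23.1). Glyma15g12900, the most abundant, had 17.1 RPKM in Mt, 5.27 in NaCl+Mt, 3.18 in NaCl and 3.73 in H2O (log2 2.17, SE 0.11). Pectin methylesterases remove methyl groups from pectin, and *ATPMEPCRB-like* Glyma19g40020 had 79.9 RPKM in Mt, 2.05 in NaCl+Mt, 2.57 in NaCl and 1.37 in H2O (log2 5.76, SE 0.18). This locus was thus high in Mt alone. *ATPMEPCRB-like* Glyma19g41950 had 466 reads in Mt, 48 in NaCl+Mt, 2 in NaCl and 10 in H2O, giving a read ratio of 46.8 for Mt:H2O (interval 25.2 to 98.3). *ATPMEPCRB-like* Glyma06g47200 was not called, with 17.9 RPKM in Mt and 11.5 in H2O, and Glyma02g02020, with 45 reads in Mt and 0 in the other libraries, did not reach the filter.

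The other pectinesterase loci, *PecEST* and *PecMET*, were up-regulated at 6 of 6. *PecMET* Glyma07g05150 had 54.0 RPKM in Mt, 10.8 in NaCl+Mt, 1.87 in NaCl and 10.4 in H2O (log2 2.36, SE 0.07), and *PecMET* Glyma16g01650 39.5 RPKM in Mt and 4.26 in H2O (log2 3.18, SE 0.11). *PecEST* Glyma17g04940 was the exception in which Mt was not the highest library, with 9.91 RPKM in Mt, 10.96 in NaCl+Mt, 0.78 in NaCl and 0.88 in H2O (log2 3.35, SE 0.24).

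Among genes for cellulose, xylan and glucosides, 17 of 22 loci were up-regulated and 3 down-regulated, with a median log2 of 3.36. *CSLD5* Glyma03g37550, a cellulose synthase-like gene, had 754 reads in Mt, 21 in NaCl+Mt, 25 in NaCl and 5 in H2O, giving a read ratio of 152 (interval 64.6 to 468). The cellulose synthase *bcsA* Glyma14g18140 had 10.7 RPKM in Mt and 1.86 in H2O (log2 2.47, SE 0.15). Of the loci that degrade these polymers, the beta-xylosidases and the cellulases were up-regulated, as were 2 of 3 *GH* loci. The beta-xylosidase *BXL2* Glyma10g01710 had 422 reads in Mt and 3 in H2O, giving a read ratio of 141 (interval 48.0 to 688). *XYL4* Glyma15g05720, another beta-xylosidase, had 24.0 RPKM in Mt and 4.86 in H2O (log2 2.28, SE 0.09). A glycosyl hydrolase, *GH* Glyma14g04940, had 628 reads in Mt, 21 in NaCl+Mt, 13 in NaCl and 1 in H2O, giving a read ratio of 631 whose interval began at 113. The most abundant of them, *GH* Glyma10g15980, was not called, with 39.7 RPKM in Mt, 56.0 in NaCl+Mt, 5.99 in NaCl and 30.1 in H2O. The cellulases *CEL2* Glyma18g03470 and *GH9B18* Glyma04g01030 had 20.5 and 6.66 RPKM in Mt, and *CEL2* had 6.30 RPKM in H2O where *GH9B18* was listed at 0 with 6 reads.

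Beta-glucosidases, *BGLU*, release glucose from glucosides and formed the family with the widest spread. Of 12 loci, 8 were up-regulated, 3 were down-regulated and 1 was not called. Glyma15g42590 had 129.8 RPKM in Mt, 3.16 in NaCl+Mt, 16.0 in NaCl and 2.91 in H2O (log2 5.43, SE 0.14). Glyma09g30910 had 35.9 RPKM in Mt and 1.26 in H2O (log2 4.73, SE 0.20). In the other direction, Glyma14g39230 had 1.499 RPKM in Mt, 5.32 in NaCl+Mt, 4.51 in NaCl and 7.44 in H2O (log2 -2.24, SE 0.19). The down-regulated *BGLU* loci reached at most 1.499 RPKM in Mt and 7.44 in H2O. None of the 3 loci annotated as glucuronosyltransferase, *UGT*, was up-regulated. Glyma03g03840 had 0.29 RPKM in Mt and 3.15 in H2O (log2 -3.07, SE 0.62). Glyma19g03000, with 8.51 RPKM in Mt and 13.8 in H2O, and Glyma01g02740, with 1.02 RPKM in Mt and 1.04 in H2O, were not called.

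The 2 ascorbate loci differed in direction. Ascorbate peroxidase, *APX4* Glyma02g37160, had 42.7 RPKM in Mt, 8.89 in NaCl+Mt, 1.03 in NaCl and 2.52 in H2O (log2 4.03, SE 0.17). *VTC4* Glyma07g39620, a phosphatase of ascorbate synthesis, had 2.54 RPKM in Mt, 2.39 in NaCl+Mt and 5.47 in H2O, and was listed at 0 in NaCl with 4 reads (log2 -1.08, SE 0.23, for Mt:H2O). The *VTC4* call was lost with a pseudocount of 1.

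Glycolysis and ethanol metabolism gave the smallest list median of the larger lists, a log2 of 1.16, with 7 of 15 loci up-regulated and 4 down-regulated. Both aldose epimerases were up-regulated, *ALDEP* Glyma09g37450 with 58.3 RPKM in Mt and 7.45 in H2O (log2 2.95, SE 0.10) and Glyma09g30670 with 24.8 RPKM in Mt and 3.15 in H2O (log2 2.94, SE 0.16). The glucose 6-phosphate epimerase *GLUPE* Glyma03g41600 had 9.04 RPKM in Mt and 2.01 in H2O (log2 2.12, SE 0.21). Phosphofructokinase, the committed step of glycolysis, was lower in Mt: *PFK* Glyma05g36050 had 1.58 RPKM in Mt, 9.94 in NaCl+Mt, 0.85 in NaCl and 7.59 in H2O (log2 -2.19, SE 0.20). Enolase, *ENO* Glyma09g28100, had 6.60 RPKM in Mt, 5.90 in NaCl+Mt, 2.74 in NaCl and 20.5 in H2O (log2 -1.62, SE 0.10). Mt therefore lay between NaCl and H2O at both. The aldolase *ALDO* Glyma12g04150 was the most abundant locus of the list, with 203 RPKM in Mt, 176 in NaCl+Mt, 438 in NaCl and 90.6 in H2O (log2 1.16, SE 0.03). Phosphoglycerate mutase, *PGAM* Glyma13g01970, was not called, with 9.46 RPKM in Mt and 10.5 in H2O. Pyruvate kinase, *PK* Glyma03g34740, had 43 reads in Mt and 5 in H2O and did not reach the filter.

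In ethanol metabolism, alcohol dehydrogenase *ADH1* Glyma04g41990 had 4.24 RPKM in Mt, 8.85 in NaCl+Mt, 37.3 in NaCl and 16.2 in H2O (log2 -1.91, SE 0.14), and Mt was the lowest library. Its copy *ADH1* Glyma14g24860 had 19 reads in Mt and 19 in H2O. The aldehyde dehydrogenases, which oxidise aldehydes to acids, were up-regulated. *ALDH3F* Glyma12g06130 had 14.5 RPKM in Mt, 1.39 in NaCl+Mt and 0.53 in H2O, and was listed at 0 in NaCl (log2 4.53, SE 0.31, for Mt:H2O). *ALDH3H* Glyma04g42740 had 23.6 RPKM in Mt and 3.36 in H2O (log2 2.78, SE 0.13). The *GroES-like* dehydrogenase Glyma01g28850 had 3.53 RPKM in Mt and 24.3 in H2O (log2 -2.75, SE 0.14), while Glyma07g18130 had 4.80 RPKM in Mt and 0.40 in H2O (log2 3.30, SE 0.40).

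Of the 5 loci listed with the TCA cycle, 4 were up-regulated. Fumarase, *FUM2* Glyma02g01930, had 37.8 RPKM in Mt, 2.82 in NaCl+Mt, 4.50 in NaCl and 3.65 in H2O (log2 3.34, SE 0.12). Malate dehydrogenase, *MDH* Glyma13g16440, had 129 reads in Mt and 5 in H2O, giving a read ratio of 25.9 (interval 10.8 to 81.2). ATP-citrate lyase makes cytosolic acetyl-CoA from citrate, and the loci of its subunit A differed in direction. *ACLA* Glyma15g42140 had 30.2 RPKM in Mt and 4.44 in H2O (log2 2.74, SE 0.12), whereas *ACLA* Glyma03g38810 had 2.43 RPKM in Mt and 14.6 in H2O (log2 -2.54, SE 0.16). Subunit B, *ACLB* Glyma17g03700, had 75 reads in Mt, 36 in NaCl+Mt, 185 in NaCl and 14 in H2O (log2 2.06, SE 0.42).

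All 11 loci of fatty acid biosynthesis were up-regulated, with log2 values between 2.35 and 4.70. The desaturase *FAD2*, which introduces the double bond that makes linoleic from oleic acid, had 40.2 RPKM in Mt, 5.40 in NaCl+Mt, 9.51 in NaCl and 3.53 in H2O at Glyma17g34640 (log2 3.47, SE 0.13). *FAD8* encodes a plastid desaturase that forms trienoic fatty acids in *Arabidopsis*. Its most abundant locus, Glyma03g07570, had 47.4 RPKM in Mt, 21.5 in NaCl+Mt, 11.4 in NaCl and 9.24 in H2O (log2 2.35, SE 0.08), and the other 3 had log2 values from 2.38 to 4.22. *KCS11* Glyma10g32260, an enzyme of fatty acid elongation, was the only locus of the list at which Mt was not the highest library, with 13.2 RPKM in Mt, 4.42 in NaCl+Mt, 21.04 in NaCl and 2.05 in H2O (log2 2.63, SE 0.16). The chain-extending *KAS I* loci were of low level. Glyma05g36690, with 107 reads in Mt and 5 in H2O, had the largest log2 of the list, and the other *KAS I* locus had 56 reads in Mt and 2 in H2O, and *KCS6* Glyma08g30140 had 62 reads in Mt and 4 in H2O. *SCD* Glyma07g03370, a stearoyl desaturase, had 62 reads in Mt and 6 in H2O.

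Genes of cell division were the list with the largest median log2 of those with over 10 loci, 4.84 over 40 loci, all up-regulated and all highest in Mt. Of these loci, 12 had 3 reads or fewer in H2O and another 11 were listed at 0 with more reads, so the median depends on how these are treated. It was 4.27 when computed from reads with a floor of 3. The spindle checkpoint holds chromosome separation until attachment is complete. Its locus *BUB3* Glyma10g40440 had 13.5 RPKM in Mt, 2.84 in NaCl+Mt, 2.38 in NaCl and 2.27 in H2O (log2 2.52, SE 0.19). *MAD2* Glyma18g01350 had 84 reads in Mt, 10 in NaCl+Mt, 9 in NaCl and 7 in H2O, giving a read ratio of 12.1 (interval 5.60 to 30.9), and *MAD2* Glyma11g37380 had 58 reads in Mt and 1 in H2O. The kinase *TTK* Glyma04g43190 had 194 reads in Mt and 9 in H2O, giving a read ratio of 21.7 (interval 11.2 to 48.1). Separase, *ESP1*, which cuts the link between sister chromatids, had 204 and 295 reads in Mt and 30 and 23 in H2O at its 2 loci. *WEE* Glyma03g37010, a kinase that restrains entry into mitosis, was up-regulated with them, with 4.14 RPKM in Mt and 0.47 in H2O (log2 2.89, SE 0.33).

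Mitotic cyclins changed more than the genes of replication licensing. The 9 *CYCB* loci had a median log2 of 5.38, and the 9 *CYCA* loci one of 4.93. *CYCB* Glyma19g30720 had the largest log2 of the list on RPKM + 0.1, with H2O listed at 0. It had 751 reads in Mt, 7 in NaCl+Mt, 34 in NaCl and 9 in H2O, giving a read ratio of 83.8 (interval 43.9 to 184). By reads, with the floor of 3, its log2 of 6.39 was below the 7.44 of *CYCA* Glyma06g12220 and the 6.72 of *CYCB* Glyma02g44570. It was also below the 6.52 of *CYCA* Glyma04g42540 and the 6.42 of *CDH* Glyma18g04240. The smallest log2 of the list was that of *CYCA* Glyma08g22200, with 4.94 RPKM in Mt and 1.15 in H2O (log2 2.01, SE 0.23). The 12 *MCM* loci, which form the helicase that opens origins, had a median log2 of 2.42. Their RPKM lay between 4.52 and 12.6 in Mt, between 0.62 and 2.41 in NaCl+Mt, between 0.37 and 2.02 in NaCl and between 0.68 and 2.47 in H2O. The lowest Mt value was thus above the highest value in any other library. The polymerases, primases and *RFA* single-strand binding loci had log2 values from 1.80 for *POLE1* Glyma12g09220 to 5.51 for *RFA1* Glyma17g08660, with 241 reads in Mt and 14 in H2O for that *RFA1* locus, giving a read ratio of 17.3 (interval 10.1 to 32.1). *RFA3* Glyma20g24590 was the most abundant replication locus, with 20.3 RPKM in Mt and 2.98 in H2O (log2 2.73, SE 0.29). *GRF* Glyma13g34580 was the most abundant cell cycle locus, with 29.1 RPKM in Mt, 14.2 in NaCl+Mt, 10.8 in NaCl and 4.74 in H2O (log2 2.59, SE 0.16).

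In the photosynthetic light reaction 21 of 23 loci were up-regulated, with a median log2 of 2.27. The 4 libraries were ordered alike at most loci. H2O was the lowest library at 7 of 8 loci of photosystem I and 8 of 9 of photosystem II, and Mt was the highest at all 17. All 17 were up-regulated, so H2O lay below Mt at each by the call. The share with H2O lowest among all loci that passed, 19.4%, covers every direction of change and is not a like comparison. *PsaF* Glyma05g00620, a subunit on the plastocyanin side of photosystem I, had 1414 RPKM in Mt, 709 in NaCl+Mt, 955 in NaCl and 289 in H2O (log2 2.29, SE 0.02). *PsbP* Glyma08g41660, of the oxygen-evolving complex, had 410 RPKM in Mt, 182 in NaCl+Mt, 247 in NaCl and 80.0 in H2O (log2 2.35, SE 0.04). The exceptions were *PsaA* Glyma04g22110, lowest in NaCl+Mt with 0.93 RPKM against 8.81 in Mt and 1.75 in H2O, and *PsbE* Glyma12g36140, lowest in NaCl with 1.56 RPKM against 9.17 in Mt and 1.94 in H2O. Both genes, like *ATPF1A* and *PsbZ*, belong to the plastid genome in plants, and these entries carry nuclear locus names. Reads from plastid transcripts and from such loci may be hard to separate, which was not tested.

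*PsaH* Glyma13g43370 had the largest log2 of the photosystem loci, with 283 RPKM in Mt, 89.9 in NaCl+Mt, 169 in NaCl and 25.98 in H2O (log2 3.44, SE 0.08). The ferredoxin locus *PetF* Glyma12g29090 had 112 RPKM in Mt, 44.5 in NaCl+Mt, 4.79 in NaCl and 9.06 in H2O. *PetF* Glyma11g00800 had the largest log2 of the whole list on RPKM + 0.1, 5.32, from 35 reads in Mt, 30 in NaCl+Mt, 4 in NaCl and 1 in H2O. *PetF* Glyma20g24500, which was not called, had the opposite order of Mt and H2O, with 21.7 RPKM in Mt, 28.8 in NaCl+Mt, 6.59 in NaCl and 34.9 in H2O. In the Calvin cycle, phosphoglycerate kinase, *PGK* Glyma15g41540, had 195 RPKM in Mt and 49.4 in H2O (log2 1.98, SE 0.04), and triosephosphate isomerase, *TIM* Glyma13g20930, 60.4 RPKM in Mt and 11.9 in H2O (log2 2.34, SE 0.09). *GAPC1* Glyma11g37360 was the down-regulated locus of that list, with 6.72 RPKM in Mt, 46.4 in NaCl+Mt, 3.18 in NaCl and 51.9 in H2O. *GAPCP-2* Glyma03g22790 was not called, with 34.3 RPKM in Mt, 39.7 in NaCl+Mt, 6.17 in NaCl and 42.3 in H2O. The study's text names *GAPC1* and *GAPCP-2* under glycolysis as well as under the Calvin cycle.

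In NaCl+Mt:NaCl, the same treatment in the presence of salt, 10.7% of all loci that passed were up-regulated and 4.82% down-regulated. That comparison shares no library with Mt:H2O. Of the 211 listed loci, 132 passed the filter there, 41 were up-regulated and 20 down-regulated. Of the 172 listed loci up-regulated in Mt:H2O, 18 (10.5%) were also up-regulated in NaCl+Mt:NaCl and 16 (9.30%) down-regulated, against 11.05% and 7.26% of all loci up-regulated in Mt:H2O. For the 21 listed loci that fell in Mt:H2O, the call with salt was up at 13 (61.9%) and down at 1, *ADH1* Glyma04g41990 (4.76%), against 28.4% and 4.10% of all such loci. The listed up-regulated loci were thus near the shares of all such loci. The study's lists also covered NaCl+Mt:NaCl, and its text names *PFK* and *GAPC1* as raised there. A locus that fell in Mt:H2O may have been listed for its rise with salt, so the 61.9% is not independent of that choice.

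Since 172 of the 211 listed loci were up-regulated, many genes with several loci would have all of them up-regulated without any relation between copies. Of 44 listed genes with at least 2 loci, 29 had all loci up-regulated and 2 had all loci down-regulated, *cysK* and *ATBFRUCT1*. Another 7 had up-regulated and uncalled loci, and 2 had down-regulated and uncalled ones. Only *ACLA*, *ATBETAFRUCT4*, *BGLU* and *GroES-like* had loci in both directions.

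A further set came from the study's list of transcripts higher than H2O in every treatment, a choice that fixes their direction. All 28 were found in the table, and 25 were up-regulated by the call used here. Their log2 values lay between 1.82 and 6.60. Of the 28, 14 were highest in Mt, against 43.1% of all loci that passed, and the choice had already placed Mt above H2O. The level in Mt beside the salt libraries was not part of that choice. The arabinogalactan proteins, which are glycoproteins of the cell wall, were among those highest in Mt. *AGP17* (Glyma01g39810.1) had 102 RPKM in Mt, 19.1 in NaCl+Mt, 11.99 in NaCl and 1.04 in H2O, and *AGP18* (Glyma11g05470.1) 50.5 RPKM in Mt, 19.2 in NaCl+Mt, 17.0 in NaCl and 0.93 in H2O. *CHLM* (Glyma08g01060.1), a methyltransferase of chlorophyll synthesis, had 36.8 RPKM in Mt, 13.8 in NaCl+Mt, 12.8 in NaCl and 1.33 in H2O. A subtilase, *SBT1.1* (Glyma03g02130.1), had 251 reads in Mt, 35 in NaCl+Mt, 19 in NaCl and 0 in H2O, at least 84.1-fold higher in Mt than in H2O.

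Other transcripts of this set were far higher in NaCl than in Mt. The putative *CER1* transcript (Glyma03g24320.1), whose *Arabidopsis* namesake acts in wax alkane synthesis, had 2.83 RPKM in Mt, 1.12 in NaCl+Mt and 95.9 in NaCl, and was listed at 0 in H2O with 4 reads. A transcript of the lipid transfer protein family (Glyma07g16770.1) had 10.7 RPKM in Mt, 19.7 in NaCl+Mt, 138 in NaCl and 1.25 in H2O. Cycloartenol synthase, *CAS1* (Glyma20g33450.1), the entry to plant sterols, had 1.26 RPKM in Mt, 4.88 in NaCl+Mt and 15.1 in NaCl, with 3 reads in H2O. NaCl was also the highest library, but by less than a fold of 2 over Mt, for *LHCB4.3* (Glyma11g35130.1), an antenna protein of photosystem II. It had 45.5 RPKM in Mt, 53.7 in NaCl+Mt, 73.7 in NaCl and 8.87 in H2O.

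The most abundant transcripts differed between the libraries. The 10 of highest RPKM in Mt came from 8 loci, and of these transcripts 7 were up-regulated and none down-regulated. Of the 10 of highest RPKM in H2O, 1 was up-regulated and 6 were down-regulated, and 3 transcripts were in both sets. Ranking by the level in 1 library favours transcripts that are higher in it, so these counts are partly fixed by the choice. Of all transcripts with a mean RPKM above 100 over Mt and H2O, 23.0% were up-regulated and 16.0% down-regulated. *rbcS* (Glyma13g07610.1), the small subunit of Rubisco, ranked 1 in Mt. A putative acid phosphatase (Glyma07g01730.1) had 2252 RPKM in Mt, 530 in NaCl+Mt, 609 in NaCl and 57.0 in H2O (log2 5.30, SE 0.04). *RD22* (Glyma04g35130.1), named after an *Arabidopsis* gene responsive to drying, had 1805 RPKM in Mt, 638 in NaCl+Mt, 2744 in NaCl and 67.8 in H2O (log2 4.73, SE 0.03). H2O was far the lowest library for both. The most abundant transcript in H2O, of 228 bases on chromosome 17 and with no name in the sources used here, had 342 RPKM in Mt, 5931 in NaCl+Mt, 5087 in NaCl and 6053 in H2O, so that Mt alone was low.

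**Figure D4:**
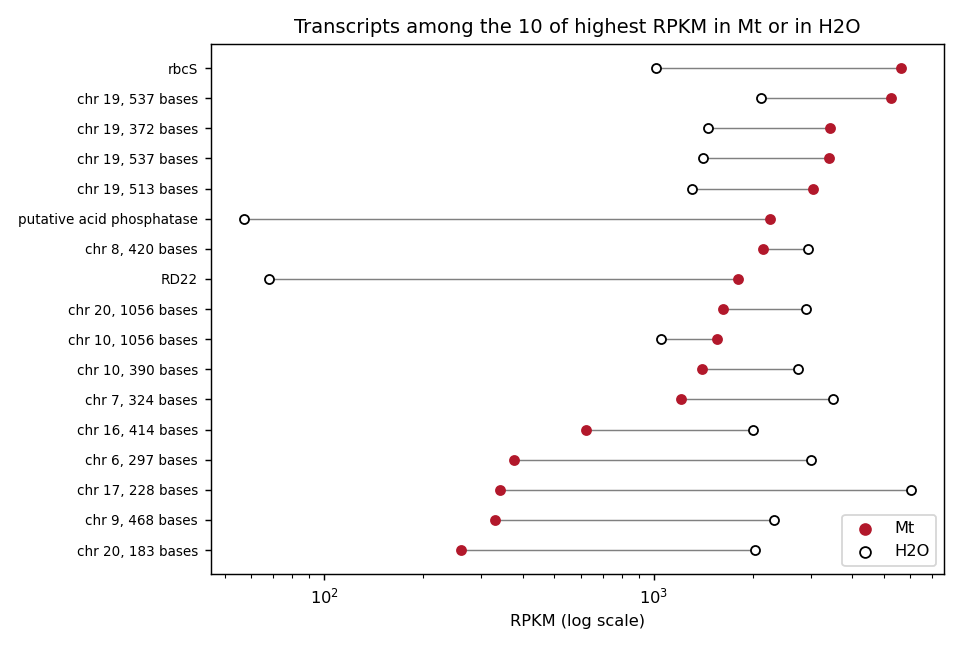
Filled points show RPKM in Mt and open points RPKM in H2O on a log x axis, for the transcripts among the 10 of highest RPKM in either library, sorted by Mt. Transcripts without a name in the sources used here are given by chromosome and length. The putative acid phosphatase (2252 against 57.0) and *RD22* (1805 against 67.8) showed the widest gaps with Mt higher, and a transcript of 228 bases on chromosome 17 the widest with H2O higher (342 against 6053).

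The loci with the largest changes on the scale of RPKM + 1 lay outside the study's lists and have no name in the sources used here. The 12 largest rises had 92.6 to 759 RPKM in Mt, 0 to 4.63 in NaCl+Mt, 0 to 9.48 in NaCl and 0 to 3.16 in H2O. By reads per mapped read, Mt was at least 4-fold above every other library at 11 of the 12. The exception was a locus on chromosome 15 of 363 bases with 1204 reads in Mt, 876 in NaCl+Mt, 75 in NaCl and 75 in H2O, listed at 0 in NaCl+Mt and H2O, where Mt was 2.22-fold above NaCl+Mt. The 12 largest falls had 0 to 11.6 RPKM in Mt, 23.0 to 596 in NaCl+Mt, 4.56 to 659 in NaCl and 34.7 to 1089.6 in H2O. Mt had the lowest RPKM at all 12, and the fewest reads per mapped read at 11. The exception was a locus on chromosome 20 of 216 bases with 193 reads in Mt, 284 in NaCl+Mt, 170 in NaCl and 219 in H2O, which was called only because Mt was listed at 0. In contrast, the 5 uncalled loci chosen for high level and small change had 271 to 356 RPKM in Mt and 264 to 354 in H2O, with log2 values from -0.03 to 0.04.

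Changed loci lay near each other more often than the share over all loci. Among up-regulated loci, the next locus that passed on the chromosome was up-regulated in 28.2%, against 23.4% of all loci that passed. Among down-regulated loci, the next was down-regulated in 19.3%, against 12.7%. The longest run of consecutive up-regulated loci held 25 loci on chromosome 13, between Glyma13g11750 and Glyma13g12080, with log2 values from 1.53 to 2.28. Levels in the run spanned 2.65 to 1040 RPKM in Mt and 0.85 to 214 in H2O, with medians of 25.5 in Mt, 7.85 in NaCl+Mt, 7.01 in NaCl and 6.74 in H2O. Mt was thus the highest at all 25 loci by a like fold, whatever their level, while the medians of the other libraries were close to each other. Of the 24 loci that flanked the run, 12 were up-regulated and 2 down-regulated.

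The longest run of down-regulated loci held 10 loci on chromosome 6, between Glyma06g40330 and Glyma06g40710, with log2 values from -5.33 to -1.24. Their median RPKM was 1.04 in Mt, 6.11 in NaCl+Mt, 2.25 in NaCl and 6.88 in H2O, so that NaCl was low as well. Mt was the lowest library at 7 of the 10. A run of 7 up-regulated loci on chromosome 12 included *ATPF1A* and *PsbE*, with a median log2 of 2.18. The locus names are not annotated in the sources used here, and it was not tested whether loci of a run share sequence and therefore reads.

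**Figure D5:**
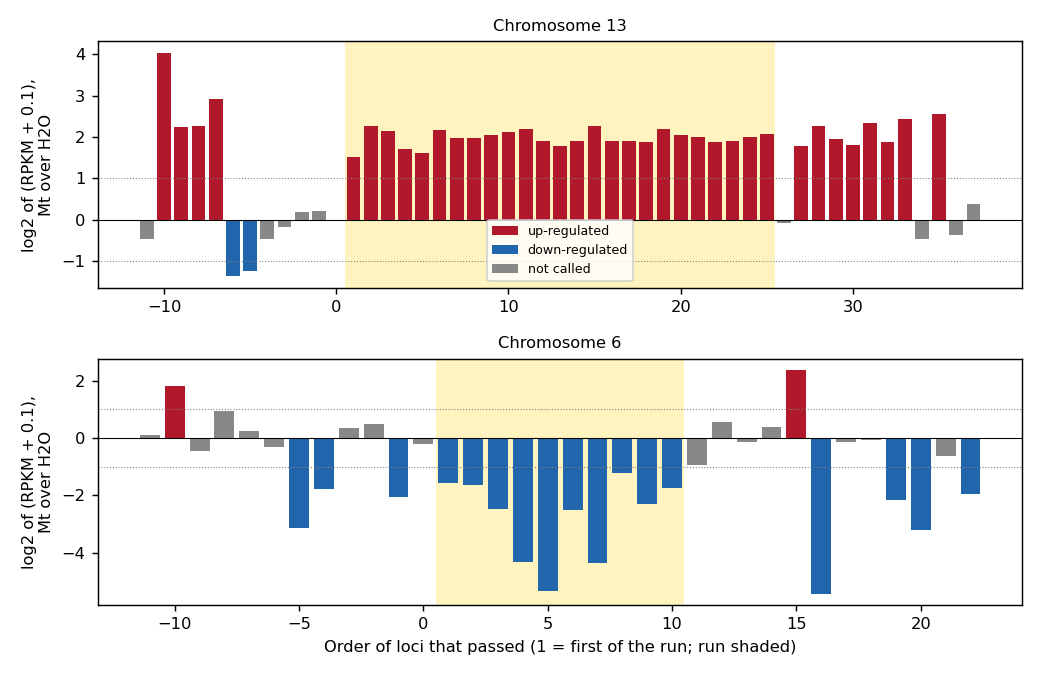
Bars show the log2 of RPKM + 0.1 in Mt over H2O for consecutive loci that passed, in chromosome order, with the longest runs shaded and 12 loci on either side. The 25 loci of the chromosome 13 run lie between 1.53 and 2.28, and the 10 loci of the chromosome 6 run between -5.33 and -1.24.

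Transcript models of a locus were mostly called alike. Of 6068 loci with at least 2 models that passed, all models had the same call at 5460, and the median spread of log2 within a locus was 0.23. Models were called in opposite directions at 7 loci, 2 of them without a model that was listed at 0 with reads. At a locus on chromosome 1 with 2 models of 459 bases, one model had 35 reads in Mt and 143 in H2O and the other 579 reads in Mt and 275 in H2O. At a locus on chromosome 11, the models of 906 and 1134 bases had 448 and 204 reads in Mt and 137 and 515 in H2O, while the model of 2604 bases had 783 reads in Mt and 754 in H2O. The study's methods count uniquely mapped reads per gene. How reads were divided between overlapping models of a locus is not given in the sources used here.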

How the data were processed

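RNA was extracted from soybean leaves with TRNzol and sequenced on an Illumina HiSeq, 1 library for each of the 4 conditions. Per the labels and the study's methods, the authors trimmed adaptors, discarded reads of low quality and mapped the rest to the soybean genome with BWA 0.7.4, and counted uniquely mapped reads per gene. The genome build, the annotation release, the counting tool and the use of strand are not given in the sources used here. The authors deposited a count of mapped reads and an RPKM for each transcript and library. The deposited RPKM equal the counts divided by transcript length and by 1 constant per library (29090310 reads for Mt and 29231289 for H2O), except for transcripts listed at 0 with reads, for which no rule is given. These constants are close to the study's totals of mapped reads, whereas its formula divides by uniquely mapped reads. Whether the deposited counts hold uniquely mapped reads only was not tested. For a transcript of a kilobase, 3 reads correspond to an RPKM of 0.103 in either library.

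Calls and log2 values rest on the RPKM as deposited, after a pseudocount of 0.1 was added, with a fold of at least 2 and an RPKM of at least 1 in either library, and were computed in Python 3.11.15 with pandas 2.3.3, numpy 2.4.6 and scipy 1.17.1. SEs came from the reads of both libraries. Neither a p-value nor a replicate check was possible with 1 library per condition. The calculation was tested on simulated data. The listed loci and gene names were taken from the study's supplementary annotation. The reference gene table matched 0 of the locus names, so lists by product name and markers of leaf cell types could not be applied and the labelled tissue was not checked beyond the photosynthetic loci. The members and lists were chosen with earlier results of these data known. Named loci are, for each list, the largest rise, the largest fall (the lowest log2 where none fell) and the most abundant, and all of lists of up to 8 loci, with the 12 largest rises and falls, the 10 most abundant transcripts per library, 5 stable loci and loci with opposite models. Further listed loci and the transcripts higher in all treatments were named after their values were seen.

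Alternatives were other pseudocounts, filters, folds and scalings (TMM in edgeR 4.0.16 under R 4.3.3, and the median of ratios), RPKM recomputed from the counts, and other choices of transcript.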

Additional observations from a re-analysis of the deposited data

Results flagged for a closer look

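The comparison NaCl+Mt:NaCl shares no library with Mt:H2O. Each result here was singled out because its sign differed between these comparisons. The study's lists also covered NaCl+Mt:NaCl, so the signs of the listed loci there are not independent of the study's choice. With 1 library per condition the difference between the comparisons was not tested.

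The median log2 of 5 lists differed in sign. In the order Mt:H2O, then NaCl+Mt:NaCl, it was 4.84 and -0.18 for the cell cycle loci, 2.27 and -0.15 for the light reaction, 1.98 and -0.34 for the Calvin cycle, 2.74 and -0.40 for the TCA cycle, and -0.69 and 1.92 for the *UGT* loci. Over all loci that passed, the medians were 0.09 and 0.04. In NaCl+Mt:NaCl, 8 of 40 cell cycle loci passed the filter, with 0 up-regulated and 1 down-regulated. The light reaction had 5 up-regulated loci and 1 down-regulated, the Calvin cycle 2 and 0, the TCA cycle 1 and 1, and *UGT* 2 and 0, so that few loci were called beside these medians, and those of the light reaction and the Calvin cycle were mostly called up-regulated.

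Among the 29 listed loci called in opposite directions, both changes reached a fold of 4 at 10 loci, whose log2 values follow in the same order.

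Down-regulated in Mt:H2O and up-regulated in NaCl+Mt:NaCl were 6 of these 10. *GAPC1* Glyma11g37360 of the Calvin cycle list had -2.93 and 3.82. In the glycolysis and ethanol list, *PFK* Glyma05g36050 had -2.19 and 3.41, and *GroES-like* Glyma01g28850 -2.75 and 7.41. The invertases *ATBETAFRUCT4* Glyma17g14750 and *ATBFRUCT1* Glyma15g02850 had -2.32 and 2.34, and -2.55 and 2.85. *BcaT* Glyma07g30500 had -2.83 and 6.61, with 2 reads in NaCl.

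Up-regulated in Mt:H2O and down-regulated in NaCl+Mt:NaCl were the other 4. *CYCA* Glyma06g12220 had 7.13 and -3.75, with 3 reads in H2O and 6 in NaCl+Mt. *BGLU* Glyma15g42590 had 5.43 and -2.30, *ACLB* Glyma17g03700 2.06 and -2.48, and *KCS11* Glyma10g32260 2.63 and -2.23.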

How the results depend on the processing

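The number of up-regulated transcripts in Mt:H2O, 8872, fell to 5288 with a filter of RPKM 5, and a fold of at least 4 left 5110 up-regulated and 1834 down-regulated transcripts, 73.6% of the calls up-regulated against 62.9%. All other alternatives kept both counts within 1.5 times. TMM scaling gave 8262 and 5775. The median log2 of 0.05 was too close to 0 to hold a direction. It was 0 without a filter, -0.015 with a filter of RPKM 5, -0.042 with TMM scaling, 0.014 with median-of-ratios scaling and, in an alternative chosen after seeing the data, 0.013 without transcripts listed at 0 with reads.

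No list median changed sign under the 7 alternatives run on the 14 lists, 2 of the lists holding only 2 or 3 loci. With a pseudocount of 1 the medians were 2.31 for the cell cycle, 1.97 for DNA replication, 1.83 for fatty acid biosynthesis, 2.12 for the pectin enzymes, 2.60 for amino acid metabolism, 2.10 for the cellulose, xylan and glucoside enzymes, 1.42 for the sugar enzymes and 1.06 for amino acid biosynthesis. Without that change, the last 4 were 4.35, 3.36, 2.36 and 2.09. The cell cycle median was 7.20 with a pseudocount of 0.01 and 3.83 with RPKM recomputed from the counts. With a pseudocount of 1, 0 ascorbate loci and 1 locus of the cellulose, xylan and glucoside list were down-regulated, against 1 and 3.

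No paired analysis was possible because each condition had 1 library, and leaving out a library leaves no comparison. The spread between plants is unknown, and the values of low loci rest on few reads.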
